A study of Homo sapiens with 6 samples.

Results

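Epithelia secrete fluid by moving chloride, and 8 genes of this machinery were followed here across kidney organoids grown in flow, static and forskolin culture: CFTR, ANO1, ANO6, SLC12A2, KCNN4, ATP1B1, SLC4A4 and CLIC1. They were taken by symbol, older synonyms counted, and the rule uses no measured value, though the genes were chosen with earlier results of these data known. All 8 were on the array, with 10 of 20236 probes that carry a symbol, and they made up 8 of 17446 genes measured. Each lay above background on all 6 arrays and was tested among 16364 genes.

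In a secreting epithelial cell, the sodium pump keeps sodium low, a cotransporter of sodium, potassium and chloride loads the cell with chloride across the basolateral membrane, and apical channels let chloride out, with water following. Potassium channels hold the voltage that drives chloride out, and bicarbonate enters on its own cotransporter. Forskolin activates adenylyl cyclase, and the cyclic AMP it raises opens CFTR through protein kinase A, which is known to swell cysts of polycystic kidney disease.

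Organoids were made from 2 mutant lines of the established human embryonic line H9, PKHD1-/- (clone C51) and PKHD1+/- (clone C9), and no line with both copies of PKHD1 intact was analysed here. PKHD1 encodes fibrocystin, the protein lost in autosomal recessive polycystic kidney disease, and since 1 clone stands for each genotype, clone and genotype cannot be told apart. All were harvested at day 35. Flow organoids lay on a gel of gelatin and fibrin from day 14 with medium moving at 4.27 ml/min from day 15, static organoids lay on the same kind of gel without flow, and forskolin organoids received 20 µM of the drug from day 14, with no gel named in the labels. Total RNA was hybridized to 6 single-colour 3D-Gene arrays, 1 for each genotype and culture, so no group had a replicate.

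The median probe lay 16.5 and 21.2 intensity units above the blank spots on the forskolin arrays and 33.6 to 58.3 units above them on the other 4. By their file names, both forskolin arrays were scanned in another session than the other 4 arrays, so forskolin, scan session and the lack of a named gel cannot be told apart. Correlations between arrays ran from 0.922 to 0.983 across genes. PKHD1 itself read 7.37 and 7.40 when perfused, 7.35 and 7.49 when static, and 7.33 and 7.24 on forskolin (normalized log2 level, PKHD1-/- before PKHD1+/-), and the part of the gene its 2 probes read is not given in the sources used here. Kidney epithelium was present by its markers, with EPCAM from 8.94 to 10.28 and PAX8 from 8.004 to 8.92. Of 23 epithelial markers on the array, 22 lay above background on all 6 arrays, as did 14738 of 17446 genes measured. Such counts alone therefore do not show which tissue was present. Skeletal muscle markers, from a tissue outside the kidney, lay above background on every array for 15 of 16 genes and were brightest with forskolin.

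Culture and genotype were terms of 1 limma model over all 6 arrays, with a threshold of 0.05 on the Benjamini-Hochberg adjusted p. A level is a quantile-normalized log2 intensity, a difference is between levels, and ± gives the moderated SE, estimated over all 6 arrays. An offset of 50 intensity units was added before the log, so differences of dim genes such as SLC4A4 and KCNN4 come out smaller than on a linear scale. No test shows spread between cultures of 1 kind, because the spread is what the terms leave over.

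With forskolin, ANO6, ATP1B1, SLC12A2 and ANO1 lay lower than in static culture in both genotypes, at -0.67 ± 0.07, -0.58 ± 0.19, -0.46 ± 0.11 and -0.29 ± 0.07 (n = 2 pairs). KCNN4 and CLIC1 lay higher in both, at 0.21 ± 0.08 and 0.20 ± 0.11, while CFTR, the channel that cyclic AMP opens, stood at -0.02 ± 0.11. None of the 8 passed the threshold in limma's test, where 169 of 16364 genes did (1.03%), and ANO6 came nearest with an adjusted p of 0.0565. Differences were below 0 for 6 of the 8, against 49.2% of all genes, with a median of -0.19. With arrays scaled to their 75th percentile, 4 of the 8 were below 0 and the median turned to 0.05. They had 1 sign in both genotypes for 6 of the 8, against 72.1%. Both forskolin arrays lay below both static arrays for 4 members, against 28.8% of all genes tested, and above them for 1, KCNN4, against 30.8%. Those 4 had an unadjusted p under 0.05, as did 23.2% of all genes, 11.3% with a lower level. Flow differences ran from -0.17 to 0.24, 6 of the 8 below 0 (54.4% of all genes), and neither the members nor any other gene passed limma's test (0%), with 0 members and 5.93% of all genes at an unadjusted p under 0.05. Both flow arrays lay below both static arrays for ANO6 alone of the 8, against 18.9% of genes, and above them for ATP1B1 and SLC4A4, against 15.7%. Less RNA per cell and fewer cells of a kind cannot be told apart in these whole organoids.

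**Figure D1:**
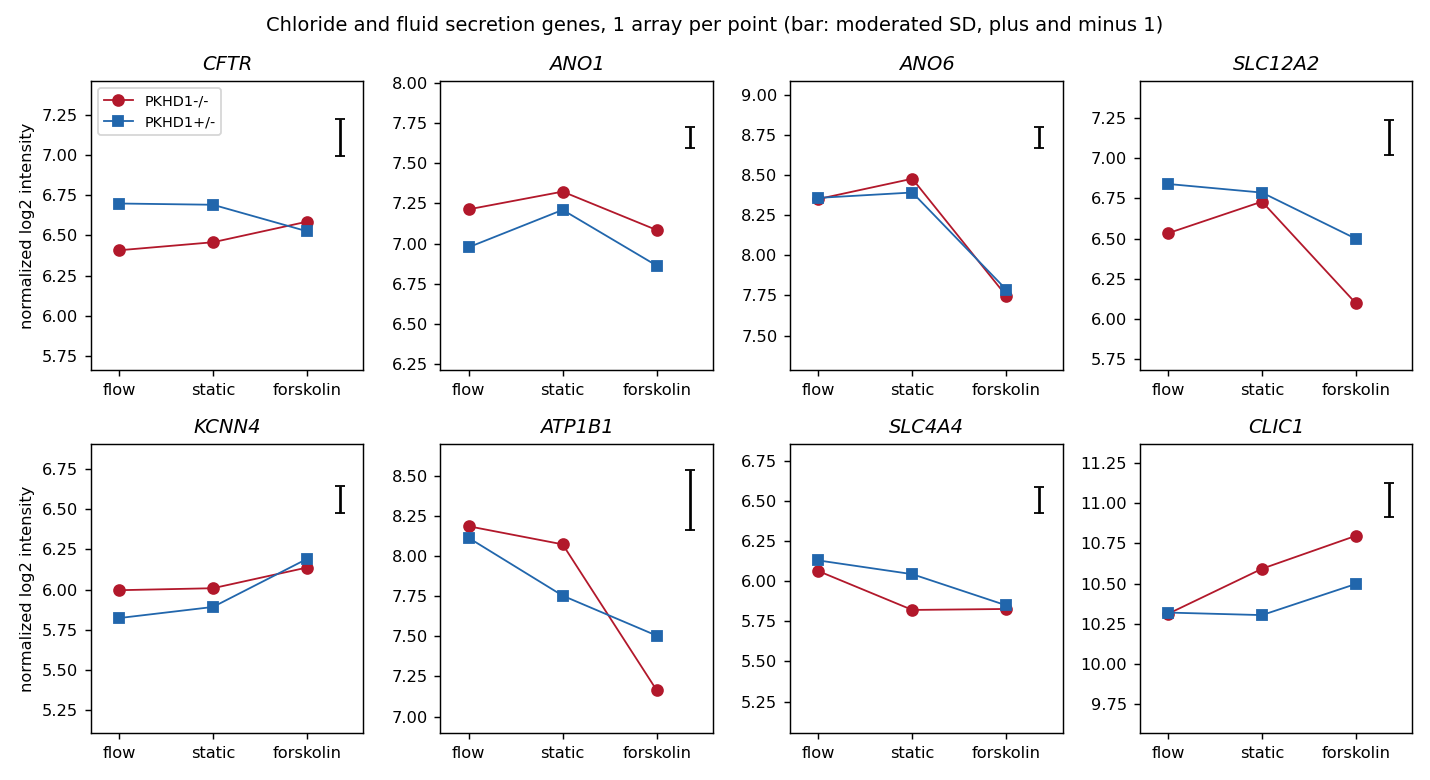
Normalized log2 level (vertical axis, each panel spanning the same height) of the 8 genes in flow, static and forskolin culture, 1 array per point, circles for PKHD1-/- and squares for PKHD1+/-, a black bar for limma's moderated SD above and below, and lines that only join the arrays of a genotype. ANO6 drops from 8.48 and 8.39 in static culture to 7.75 and 7.79 with forskolin.

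Short stretches of promoter are given for the 3 members that hold the core of the cyclic AMP response element, since forskolin acts through cyclic AMP. The core was searched as TGACG on both strands of the 250 bases before each start site (RefSeq, GRCh38.p14). The full element was searched as TGACGTCA, which contains the core. All 8 members had a window, SLC4A4 5 of them. The core was found for 3 of the 8 genes, in 3 of 12 windows, against 21.2% of 35116 windows of this length in the table. The full element was found in 0 of 12, against 1.65% of all windows. The windows of SLC12A2 (chr5:128083516-128083765, plus strand), KCNN4 (chr19:43780974-43781223, minus strand) and the second start of SLC4A4 (chr4:71186515-71186764, plus strand) are printed from the gene's own strand, with the core in capitals.
SLC12A2: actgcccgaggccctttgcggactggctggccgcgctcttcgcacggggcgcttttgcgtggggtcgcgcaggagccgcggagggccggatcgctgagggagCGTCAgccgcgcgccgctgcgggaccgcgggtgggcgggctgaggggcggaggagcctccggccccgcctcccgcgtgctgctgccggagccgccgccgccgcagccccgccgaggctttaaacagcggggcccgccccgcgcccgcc
KCNN4: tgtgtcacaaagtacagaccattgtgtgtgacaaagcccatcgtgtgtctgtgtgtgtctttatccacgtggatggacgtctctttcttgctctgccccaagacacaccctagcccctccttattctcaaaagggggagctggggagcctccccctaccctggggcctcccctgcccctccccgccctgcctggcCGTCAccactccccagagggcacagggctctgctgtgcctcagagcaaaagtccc
SLC4A4: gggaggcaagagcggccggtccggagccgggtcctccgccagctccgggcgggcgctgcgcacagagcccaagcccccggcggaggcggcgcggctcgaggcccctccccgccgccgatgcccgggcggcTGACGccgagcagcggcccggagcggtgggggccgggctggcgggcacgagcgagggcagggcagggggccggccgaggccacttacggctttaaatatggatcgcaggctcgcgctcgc
The core began 148 bases before the start of SLC12A2 and 55 before that of KCNN4, on the opposite strand in both, and 120 before that of SLC4A4, on the gene's strand. Of these 3 genes, SLC12A2 lay lower with forskolin in both genotypes, KCNN4 higher in both, and SLC4A4 differed in sign between genotypes. A match describes the letters of the window and shows no binding.

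Among the channels that let chloride leave the cell, CFTR, the apical channel opened by cyclic AMP, read 6.46 (PKHD1-/-) and 6.69 (PKHD1+/-) without flow or drug, 6.41 and 6.70 when perfused, and 6.59 and 6.53 on forskolin. Its 6 levels spanned 0.29, and no gap between neighbours in their order exceeded the moderated SD of 0.11. The forskolin difference was 0.13 in PKHD1-/- and -0.16 in PKHD1+/-, with a 95% interval of the mean from -0.35 to 0.32, and the flow difference was -0.05 and 0.01, with an interval from -0.36 to 0.31. Both intervals hold values on either side of 0 that are larger than the span of the 6 levels.

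ANO6 encodes a calcium-activated protein that scrambles membrane phospholipids and conducts ions. Its level was 8.48 (PKHD1-/-) and 8.39 (PKHD1+/-) without flow or drug, 8.35 and 8.36 when perfused, and 7.75 and 7.79 on forskolin. The forskolin arrays lay below the other 4 with no overlap, and the step between them and the next array was larger than the moderated SD of 0.07. The forskolin levels were 0.63 times the static ones (-0.73 in PKHD1-/-, -0.60 in PKHD1+/-, adjusted p = 0.0565). With arrays scaled to their 75th percentile the difference was -0.72 and passed (adjusted p = 0.0254), where the median over all tested genes was 0.31 rather than 0.00. In all, 6833 of 16364 genes passed with that scaling. Under flow ANO6 stood at -0.08 ± 0.07.

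ANO1, the calcium-activated chloride channel, read 7.32 (PKHD1-/-) and 7.21 (PKHD1+/-) without flow or drug, 7.21 and 6.98 when perfused, and 7.08 and 6.86 on forskolin. Both forskolin arrays lay below both static arrays, and flow and static overlapped by less than 0.01. The flow difference was -0.17 ± 0.07 (adjusted p = 0.892) and the forskolin difference -0.29 ± 0.07 (adjusted p = 0.127). The latter shrank to -0.06 with 75th percentile scaling. These levels average a bright probe and a dim one. The bright probe gave -0.35 in PKHD1-/- and -0.48 in PKHD1+/- with forskolin, and the dim one -0.13 and -0.21. The dim spot lay above background on 5 of 6 arrays and stood 0.13 blank SDs above the blank mean on the PKHD1+/- forskolin array.

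CLIC1 encodes a soluble protein that can insert into membranes as a chloride channel, and it was the brightest member. It read 10.59 (PKHD1-/-) and 10.30 (PKHD1+/-) without flow or drug, 10.31 and 10.32 when perfused, and 10.80 and 10.50 on forskolin. Forskolin and static arrays overlapped, because PKHD1-/- static lay above PKHD1+/- forskolin. The forskolin difference was 0.21 in PKHD1-/- and 0.19 in PKHD1+/- (adjusted p = 0.379), and the mean of 0.20 was 0.12 without the PKHD1-/- forskolin array and 0.13 without the PKHD1+/- static array. Its 2 probes disagreed: one gave 0.72 and 0.35 with forskolin, and the other -0.31 and 0.04. The first read 10.69 on both static arrays, while the second read 10.50 and 9.92 there, so the genotype gap in static culture came from the second probe.

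**Figure D2:**
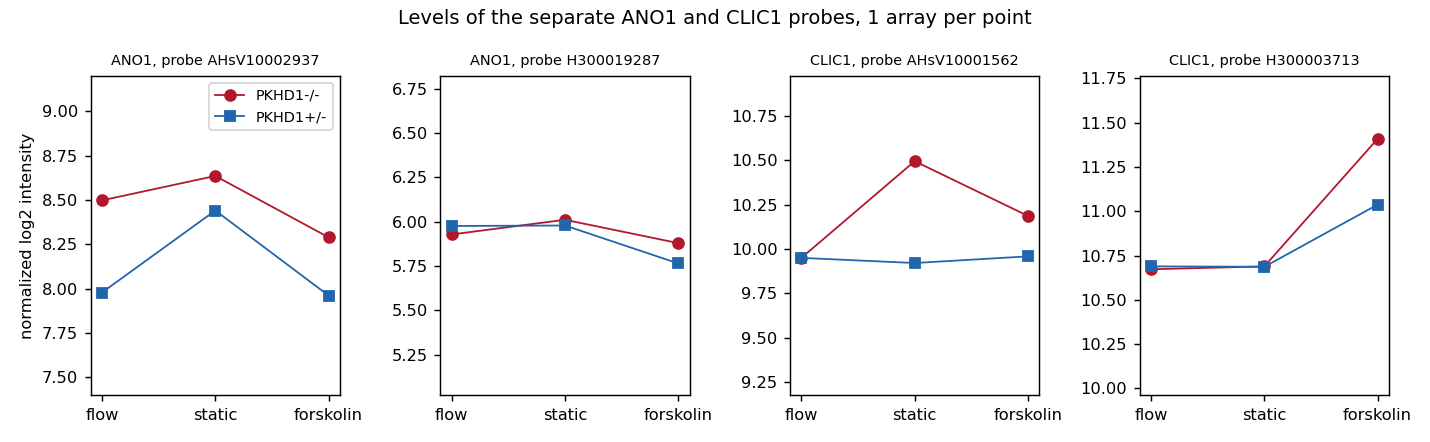
Normalized log2 level (vertical axis) of each of the 2 probes of ANO1 and of CLIC1 in flow, static and forskolin culture, 1 array per point, circles for PKHD1-/- and squares for PKHD1+/-. The CLIC1 probe on the right climbs to 11.41 and 11.04 with forskolin, while the other reads 10.19 and 9.96 there.

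Of the transporters that load the cell, SLC12A2 encodes NKCC1, the basolateral cotransporter of sodium, potassium and chloride. Its level was 6.73 (PKHD1-/-) and 6.79 (PKHD1+/-) without flow or drug, 6.53 and 6.84 when perfused, and 6.10 and 6.50 on forskolin. The PKHD1-/- forskolin array was the lowest by more than the moderated SD of 0.11. Both forskolin arrays lay below all others, though PKHD1+/- forskolin lay below PKHD1-/- flow by less than that SD. The forskolin difference was -0.63 in PKHD1-/- and -0.29 in PKHD1+/- (adjusted p = 0.138). With an offset of 16 in place of 50 it was -0.75. The authors' deposited values, whose making also differs in other ways, were 29.7 and 31.2 in static culture against 9.07 and 18.0 with forskolin, a difference of -1.18 on the log2 scale with a pseudocount of 1. With 75th percentile scaling it was -0.14. Flow gave -0.20 and 0.05.

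SLC4A4 encodes NBCe1, the cotransporter of sodium and bicarbonate that is also abundant in proximal tubule. It was the dimmest member, at the 16.4th percentile of mean levels over the genes tested, and read 5.82 (PKHD1-/-) and 6.04 (PKHD1+/-) without flow or drug, 6.06 and 6.13 when perfused, and 5.83 and 5.85 on forskolin. Both flow arrays lay above the other 4, though PKHD1+/- static followed by less than the moderated SD of 0.08. Flow gave 0.24 and 0.09, a mean of 0.16 ± 0.08 (adjusted p = 0.992), which was 0.07 without the PKHD1-/- static array and 0.25 without the PKHD1+/- static array. In the authors' deposited values, flow read 6.36 and 11.6 against 1.67 and 6.34 in static culture, a difference of 1.12. The PKHD1-/- static spot, behind the 1.67 and the 0.24, stood only 3.99 blank SDs above the blank mean. The forskolin spots stood only 3.21 and 2.52 blank SDs above the blank mean, so the forskolin difference of -0.09 ± 0.08 was at the limit of what this probe can measure. It turned to 0.44 with 75th percentile scaling.

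Of the genes that supply the driving force, ATP1B1 encodes the beta subunit that brings the sodium pump to the membrane. It varied most among the members, with levels of 8.07 (PKHD1-/-) and 7.75 (PKHD1+/-) without flow or drug, 8.18 and 8.11 when perfused, and 7.16 and 7.50 on forskolin. The 3 cultures did not overlap, with flow highest and forskolin lowest, though PKHD1-/- flow, PKHD1+/- flow and PKHD1-/- static lay closer to each other than the moderated SD of 0.19. The forskolin difference was -0.91 in PKHD1-/- and -0.25 in PKHD1+/- (mean -0.58 ± 0.19, adjusted p = 0.197), and ran from -0.85 to -0.31 as single arrays were left out. With 75th percentile scaling it was -0.56 and passed (adjusted p = 0.0494), as did 6833 of 16364 genes. The flow difference was 0.11 and 0.36, and without the PKHD1+/- static array it was 0.0096, against 0.46 without the PKHD1-/- static array.

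KCNN4 encodes the calcium-activated potassium channel KCa3.1, which holds the voltage during secretion. It read 6.01 (PKHD1-/-) and 5.89 (PKHD1+/-) without flow or drug, 5.996 and 5.82 when perfused, and 6.14 and 6.19 on forskolin. Both forskolin arrays lay above the other 4 by more than the moderated SD of 0.08, as a group with no overlap. The forskolin difference was 0.13 and 0.30 (adjusted p = 0.260). The mean of 0.21 was 0.11 without the PKHD1+/- forskolin array and 0.31 without the PKHD1-/- one. Its spots were dim, from 6.48 to 14.3 blank SDs above the blank mean. In the authors' deposited values, forskolin read 10.2 and 9.12 against 5.999 and 2.88 in static culture, a difference of 1.03. With 75th percentile scaling it was 0.63 and passed (adjusted p = 0.0254), as did 6833 of 16364 genes, where the median of all genes had moved up as given above.

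**Figure D3:**
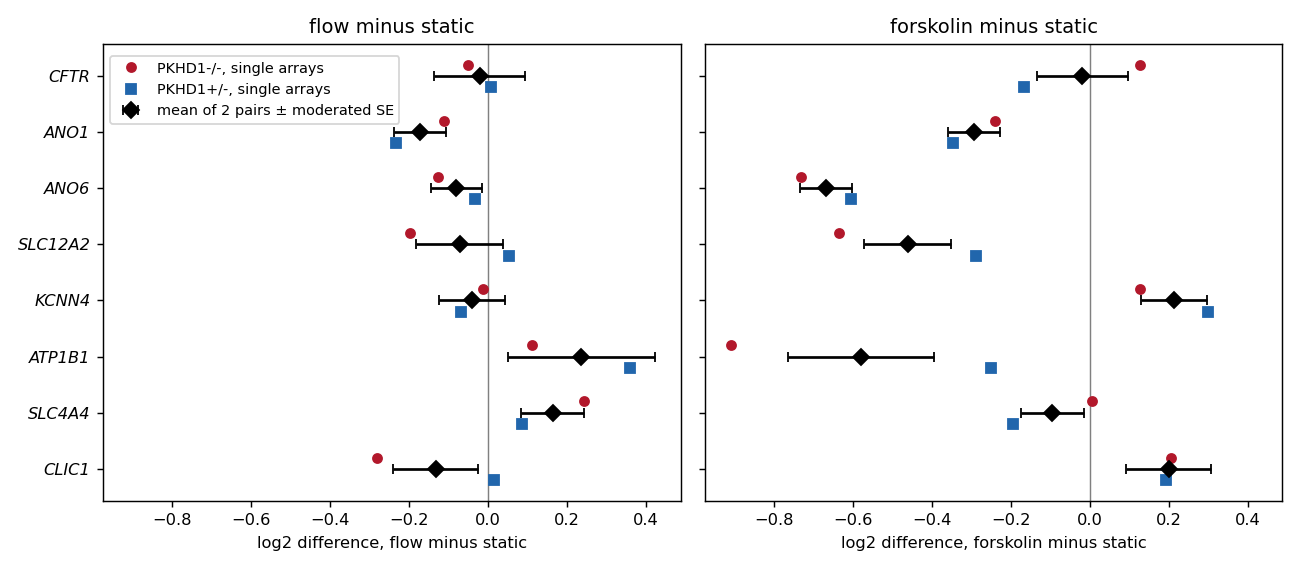
Differences on the log2 scale (horizontal axis) for flow minus static, left, and forskolin minus static, right, with diamonds for the mean of 2 pairs and its moderated SE, circles for the single PKHD1-/- pair and squares for the single PKHD1+/- pair. With forskolin, ANO1, ANO6, SLC12A2 and ATP1B1 lie left of 0 in both genotypes, and no member passed the threshold in either comparison.

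ATP1B1 was the only member whose level spanned at least 1 over the 6 arrays, at 1.02. The 3 genes of most similar pattern among 1911 with such a span were ENAH, which promotes actin filament growth, CYRIB, which binds the GTPase RAC1, and LUM, a matrix proteoglycan of stroma, with Pearson correlations of 0.995, 0.989 and 0.981 over 6 arrays. Correlations above 0.95 numbered 35. With 6 points that share 3 cultures these values only describe the arrays.

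By genotype, no member passed and no gene did (0%), with 528 genes at an unadjusted p under 0.05 (3.23%), of the members ANO1. ANO1 was higher in PKHD1-/- in 3 of 3 cultures, by 0.24 when perfused, 0.11 when static and 0.22 on forskolin (mean 0.19 ± 0.05, adjusted p = 1.00). SLC12A2 was lower in 3 of 3, at -0.31, -0.06 and -0.40 (mean -0.26 ± 0.09), and SLC4A4 at -0.07, -0.22 and -0.02. A common sign in 3 of 3 pairs was seen for 3 of the 8 members and for 20.8% of all genes. The genotype difference of CFTR was -0.29 when perfused, -0.23 when static and 0.06 on forskolin.

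The other genes of secretion were read from lists by role. With forskolin, 40 chloride channel genes were tested and 0 passed, with a median difference of -0.02 against 0.00 over all genes. CLIC4, a relative of CLIC1, stood at -1.69 ± 0.40 and LRRC8D, a subunit of the volume-regulated anion channel, at -0.84 ± 0.14. TTYH2 and LRRC8A, the subunit every such channel needs, stood at 0.73 ± 0.24 and 0.44 ± 0.12. CLIC4 read 11.04 and 10.37 in static culture against 8.80 and 9.23 with forskolin. Its sign was opposite to that of the CLIC1 mean, though the CLIC1 probes disagreed and its forskolin and static arrays overlapped. LRRC8D read 6.91 and 7.29 against 6.09 and 6.44, and its flow levels of 7.48 and 7.42 were the highest.

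Among 12 cotransporters of the SLC12 family and their kinases, 0 passed and SLC12A2 was the lowest. SLC12A8, above background on only 4 of 6 arrays, stood at -0.26 ± 0.06, and OXSR1, a kinase that activates NKCC1, at 0.36 ± 0.12. Among 24 bicarbonate transporters, anion exchangers and carbonic anhydrases, CA3 rose, at 1.88 ± 0.15 (adjusted p = 0.0491). In this list 14 genes had a positive difference and 10 a negative one, with CA9 at 1.20 and CA2 at -1.14, neither past the threshold. CA3 is the carbonic anhydrase of skeletal muscle and fat. It read 6.73 and 6.33 when static, 6.81 and 6.75 when perfused, and 8.70 and 8.13 on forskolin. The call ended without any 1 array (adjusted p from 0.1001 to 0.314) and on the 4 forskolin and static arrays alone, and stood at 0.0587 with no filter on dim probes and 0.0518 with the brightest probe per gene. Over all genes, 1.03% passed with forskolin and 49.2% had a difference below 0. Of muscle markers, all 16 on the array had a positive difference with forskolin, with a median of 4.05, and 9 of 16 passed. Their summed authors' intensity was 101940 in PKHD1-/- and 81002 in PKHD1+/- on forskolin, 4450.5 and 1061 when static, and 22585 and 10774 when perfused.

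Among 24 potassium channel genes, 0 passed. KCNJ15 and KCNJ16, inward rectifiers of kidney epithelium, stood at -1.67 ± 0.28 and -1.58 ± 0.39 with forskolin, far beyond KCNN4 in size. KCNJ15 read 8.10 and 9.02 when static against 6.80 and 6.98 on forskolin, and KCNJ16 9.10 and 10.52 against 8.21 and 8.26. The pore gene KCNK1 stood at 0.23 ± 0.07. Of 11 sodium pump genes 0 passed: FXYD5, a regulator of the pump, was at -0.64 ± 0.30, beside ATP1B1. ATP1B4, a muscle gene of the beta subunit family, was at 0.41 ± 0.07, and lay above background on only 4 of 6 arrays. Of 12 aquaporin genes, 10 had a positive difference with forskolin and 2 a negative one, against 49.2% of all genes below 0. None passed, and AQP4 stood at 0.36 ± 0.12.

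On the side of sodium absorption, 0 of 10 genes passed. PRSS8, a protease that activates the epithelial sodium channel, stood at -0.61 ± 0.20, SGK1, a kinase that raises channel number, at -0.33 ± 0.06, and SLC5A2, the glucose cotransporter of proximal tubule, at 0.32 ± 0.08. Of 16 genes of calcium and purinergic control, 0 passed. PKD2, the calcium-permeable channel mutated in dominant polycystic kidney disease, read 8.36 and 8.40 when static, 8.10 and 8.48 when perfused and 6.70 and 6.30 on forskolin, a difference of -1.88 ± 0.21 (adjusted p = 0.0612). P2RX5, an ATP-gated channel that was above background on 5 of 6 arrays, stood at 0.66 ± 0.08.

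Of 41 genes of the cyclic AMP pathway, 0 passed with forskolin. The protein kinase A regulatory subunits PRKAR2B and PRKAR1A stood at -1.06 ± 0.18 and -0.84 ± 0.23, and the cyclase ADCY3 and the phosphodiesterase PDE1A at 0.63 ± 0.16 and 0.48 ± 0.10. Of 22 genes listed for the transcription factor CREB, 16 had a positive difference and 6 a negative one, against 49.2% of all genes below 0, and 0 passed. The list holds its targets, but also CREB1 itself and its coactivators CRTC1 and CRTC2. SST, the somatostatin gene, read 7.99 and 8.38 when static against 11.84 and 12.10 on forskolin, a difference of 3.79 ± 0.34 (adjusted p = 0.0526). CREM, which encodes a repressor induced by cyclic AMP, stood at 0.87 ± 0.17, and DUSP1 and FOS at -0.52 ± 0.18 and -3.49 ± 0.49. The median was 0.14 for these genes.

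**Figure D4:**
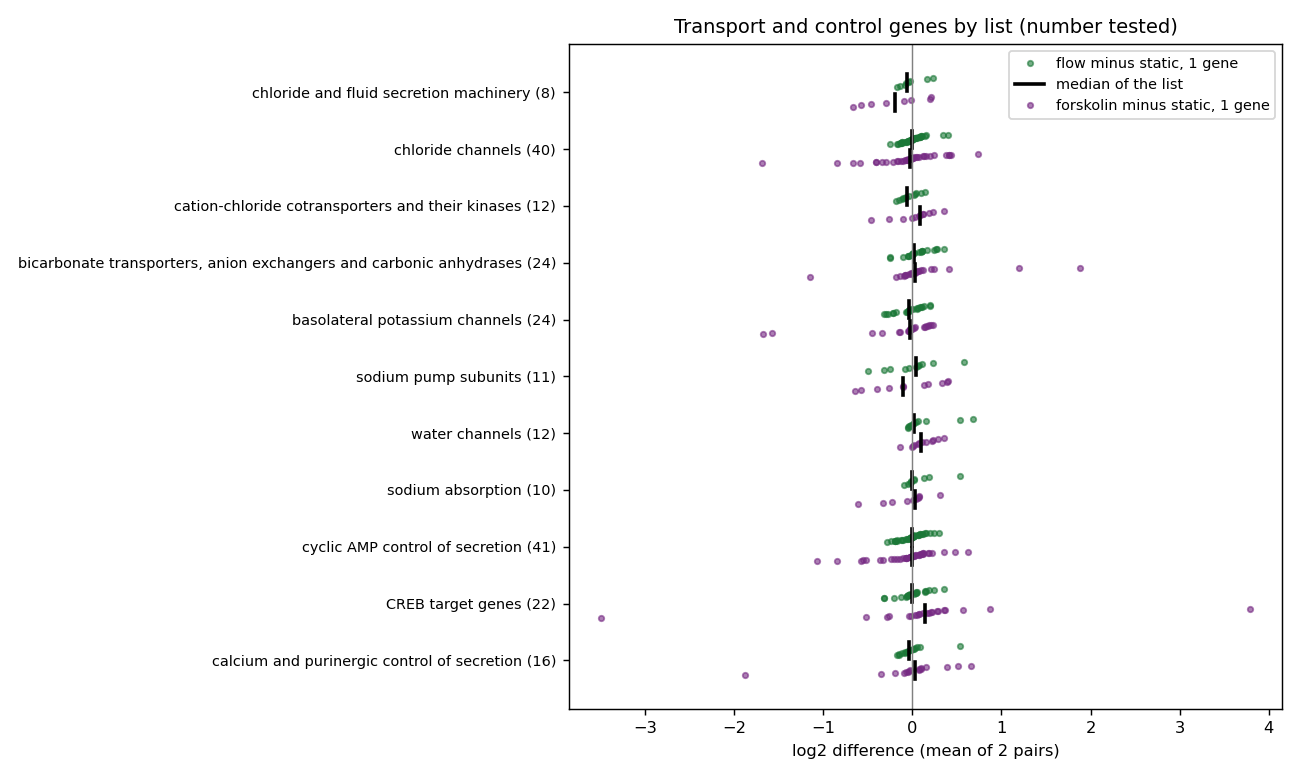
Differences on the log2 scale (horizontal axis, mean of 2 pairs) of every tested gene in 11 lists, upper points for flow minus static and lower points for forskolin minus static, with black bars for list medians. The medians lie from -0.19 to 0.14 with forskolin and from -0.06 to 0.04 under flow, and the spread is wider with forskolin.

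Under flow, 0 genes of these lists passed, as for all genes (0%); at an unadjusted p under 0.05 there were 971 of 16364 genes, and limma's trend and robust settings called 1. The aquaporin gene AQP6 read 7.002 and 7.20 under flow against 6.18 and 6.66 in static culture (0.68 ± 0.13). AQP1, the water channel of proximal tubule, read 6.79 and 6.94 against 6.36 and 6.31 (0.53 ± 0.12). NEDD4L, which removes sodium channels from the membrane, stood at 0.53 ± 0.10, and NT5E, which makes adenosine outside the cell, at 0.54 ± 0.15. Among chloride channels, LRRC8D and ANO7 stood at 0.35 ± 0.14 and 0.40 ± 0.25, and TTYH1 at -0.25 ± 0.12. FXYD5 and ATP1B3 of the sodium pump stood at -0.49 ± 0.30 and -0.32 ± 0.14. CREB1 stood at 0.35 ± 0.07, SLC4A7 and SLC4A11 at -0.25 each, CA2 at 0.36 ± 0.22, and the channel subunit genes KCNMB1 and KCNE3 at -0.27 and 0.19.

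With forskolin, 19 of 23 markers of tubule and general epithelium had a negative difference, against 49.2% of all genes. The median of these markers was -0.30, and 0 passed. With the percentile scaling used for the members, 15 were negative and their median was -0.26, where the median of all genes was 0.31. The median of these markers was -0.39 with an offset of 16 and -0.54 in the authors' deposited values. Both forskolin arrays lay below both static arrays for 15 of the 23, against 28.8% of all genes. Stroma markers had a negative difference for 10 of 14, with a median of -0.34, and LUM stood at -1.80. The other 4 had a positive one, the highest PDGFRB at 0.94 and COL5A1 at 0.58. Collecting duct markers had a positive one for 11 of 12, with a median of 0.07, and those of the loop of Henle and distal tubule for 6 of 11, with a median of 0.02. Of the epithelial markers, SPINT1 stood at -1.34, EPCAM at -0.996, KRT18 at -1.29 and CLDN4 at -1.08, all far below the list's median. SPINT2 stood at -0.30, and 4 markers had a positive difference, the highest POU3F3 at 0.21. The epithelial markers' summed authors' intensity was 3277 in PKHD1-/- and 2874 in PKHD1+/- on forskolin, 4039.6 and 5695 when static, and 3989 and 4357 when perfused. Proximal tubule markers summed to 567 and 411 on forskolin, 578 and 1473 when static, and 1969 and 1713 when perfused, where 11 of 12 had a positive difference. ESRP1 and the proximal tubule transporter SLC34A1 were each above background on 5 of 6 arrays. The part of these markers in the values of ANO6, ATP1B1, SLC12A2, ANO1 and SLC4A4 was not tested.

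**Figure D5:**
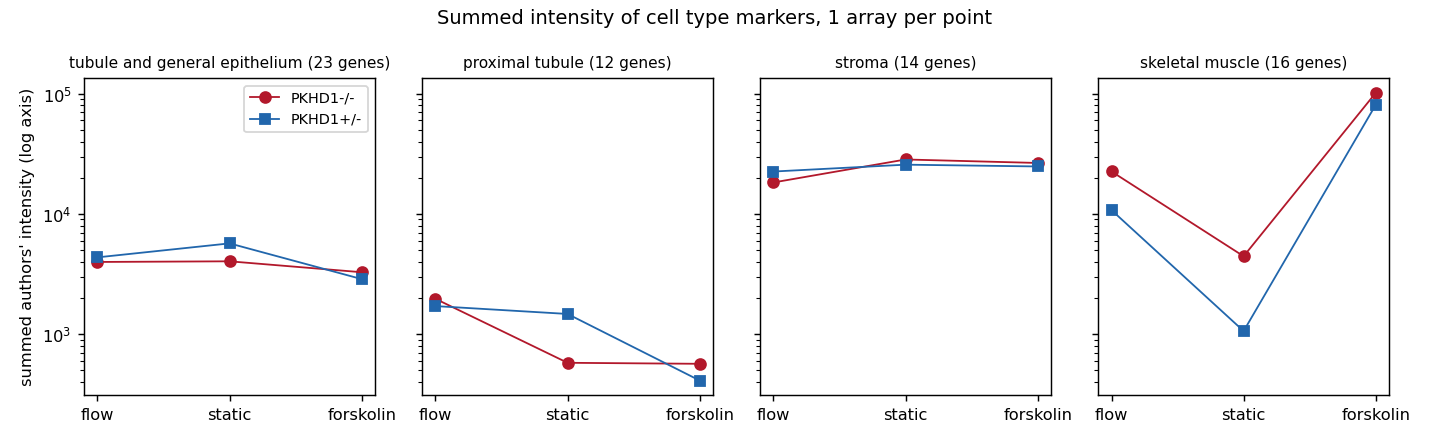
Summed authors' intensity (vertical log axis, arbitrary units, empty cells as 0) of markers of epithelium, proximal tubule, stroma and skeletal muscle in flow, static and forskolin culture, 1 array per point, circles for PKHD1-/- and squares for PKHD1+/-. Muscle markers reach 101940 and 81002 with forskolin, while epithelial markers are lowest there.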

How the data were processed

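Gene expression was measured on 6 arrays, 1 for each genotype and culture. Per the file headers, the deposited intensity is the median brightness of each spot on a linear scale, joined over gains, with no background subtracted. How the authors made their value table, also an intensity with a median of 25 per array and empty cells for dim spots, is not given in the sources used here. In limma 3.58.1 (R 4.3.3), normexp with offset 50 corrected the spot medians, whose log2 values were then quantile normalized. Of 24460 probes, 4224 had no symbol and 205 were marked not good on an array and were left out; 2899 symbols were updated through RefSeq. Probes of a gene were averaged. A probe was above background when over 2 SD above the trimmed mean of 2680 blank spots, and a gene was tested when above it on at least 2 of 6 arrays. Residual degrees of freedom were 2, with a prior of 1.54, and tests were 2-sided. The procedure was tested on simulated data. Since the arrays have no replicates, p-values measure only the spread left between these samples, and their number limits the precision. The members and lists were chosen with earlier results of these data known. Members are always named. From each list of genes by role, genes past the threshold are named, or else up to 2 at each end. The latter have 1 sign in both genotypes and lie above background on every array of the brighter culture. Cell type markers are named only in part. The 9 muscle markers past the threshold with forskolin are counted but not named, and the endothelial marker EMCN also passed there, at -1.47 ± 0.09. ESRP1, SLC34A1, PAX8, CLDN4 and SPINT2 were chosen after their values were seen, as were CA2 and CA9 for forskolin. Alternatives changed the scaling, background, offset, source, filter, probe choice, spread model and arrays. The comparisons with static culture share the static arrays.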

Additional observations from a re-analysis of the deposited data

Results flagged for a closer look

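For several members, responses or genotype differences had opposite signs between groups, which rest on single arrays and were not tested. For flow minus static, the response in PKHD1-/- minus that in PKHD1+/- was -0.058 for CFTR (-0.05 and 0.01), -0.25 for SLC12A2 (-0.20 and 0.05) and -0.30 for CLIC1 (-0.28 and 0.02). For forskolin minus static it was 0.29 for CFTR (0.13 and -0.16) and 0.20 for SLC4A4 (0.01 and -0.19).

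The genotype difference changed sign between cultures for 5 members, with the highest and lowest culture apart by 0.66 for ATP1B1, 0.35 for CFTR, 0.31 for CLIC1, 0.23 for KCNN4 and 0.12 for ANO6. ATP1B1 stood at 0.32 in static culture, 0.07 under flow and -0.34 with forskolin. CLIC1 stood at 0.29, -0.01 and 0.30, KCNN4 at 0.12, 0.17 and -0.05, and ANO6 at 0.09, -0.01 and -0.04 in the same order. These differences between cultures were not tested.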

How the results depend on the processing

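Of 352 alternative values for the 8 members in 3 comparisons, 334 kept their sign, and 3 passed the threshold where the reported value did not, all under 75th percentile scaling. Many of the 352 could not change sign, so 334 is no measure of stability. The filters, the spread model, leaving out an array of the third culture and the 4-array fits leave a member's culture difference as it was. The brightest-probe setting could move only ANO1 and CLIC1. Scaling to the 75th percentile called 6833 of 16364 genes for forskolin, 5991 of them higher (87.7%, against 115 of 169, 68.0%, as reported). An offset of 16 called 585 (56.4% higher), the authors' values 456 (49.1% higher), trend and robust settings 1177 (50.6% higher) and 1 for flow, no filter on dim probes 42 (85.7% higher), and the 4 forskolin and static arrays alone 0. Leaving out any 1 array called 0 for forskolin (from 0 to 0), with fewer arrays in the fit. Under 75th percentile scaling, forskolin turned to 0.21 for CFTR and 0.44 for SLC4A4, and genotype to -0.00030 for ANO6 and 0.044 for SLC4A4, and the median of all genes was -0.11 for flow. In the value table, flow turned to 0.0055 for CFTR. The cause was not tested. As single arrays were left out, flow ran from -0.12 to 0.081 for CFTR, -0.22 to 0.078 for SLC12A2, -0.11 to 0.030 for KCNN4 and -0.28 to 0.019 for CLIC1, forskolin from -0.18 to 0.14 for CFTR, and genotype from -0.023 to 0.039 for ANO6 and -0.13 to 0.20 for ATP1B1. The other member values kept their sign as single arrays were left out. Genotype is a term of every culture comparison and so pairs the cultures, and the labels give no other pairing.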
